A study of Mus musculus with 31 samples.

Results

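The 35 interferon-stimulated genes described here are a named set of antiviral effectors, nucleic acid sensors, transcription factors and regulators that type I interferon switches on. They were found by symbol among the probe sets of an Affymetrix expression array, and where a gene had several probe sets the one with the highest mean over all arrays was used. Of the 35 genes, 33 had a probe set, out of 18147 genes on the array, and 30 passed the filter on low values, out of 12890 genes tested. Isg15 and Ifi44 had no probe set under those symbols and were not analysed here. Livers came from female mice of the inbred strains NZW/LacJ, MA/MyJ, WSB/EiJ and SM/J, 8 to 10 weeks old when the study began. In each strain 4 mice received vehicle, which was sterile water, and 4 received PF-04287881, a candidate antibiotic, by gavage at 600 mg/kg once each day for 7 days. The left lobe was taken 24 hours after the last dose, and 1 treated WSB/EiJ mouse died of a gavage error, so that group holds 3 animals and the study holds 31 arrays. No genetic modification, infection or interferon treatment was part of any group. The submitters coded MA/MyJ and NZW/LacJ as strains with vacuolated Kupffer cells, the resident macrophages of the liver, and NZW/LacJ as the strain with single cell necrosis. Each array measured 1 animal, so the spread between arrays of a group is a spread between animals, and the small number of arrays limits the precision.

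Type I interferons bind a receptor pair on the cell surface, and the kinases attached to it phosphorylate Stat2. A complex that holds Stat2 and Irf9 then enters the nucleus and binds a short element in promoters, the interferon-stimulated response element. The genes switched on in this way block viral replication, raise the sensors of foreign RNA and DNA, and include Irf7, which drives more interferon, and Usp18, which damps signalling at the receptor. In liver, hepatocytes, sinusoidal endothelial cells and Kupffer cells can all respond to interferon. An array of whole tissue cannot tell fewer cells of a type from less RNA per cell.

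Promoter sequences are shown for the 6 genes with the highest drug effect in NZW/LacJ, the strain in which most of the set rose, among those that passed the test and have an entry in the RefSeq promoter table (mouse build GRCm38.p6). Each runs 5′ to 3′ along the strand of the gene, from 250 bases before the annotated start to 50 after it. Capitals mark a match to the core of the interferon-stimulated response element, which is GAAA, any 2 bases and GAAA again, searched on both strands and with overlaps allowed.
Oas1a, chr5:120907476-120907775, reverse strand: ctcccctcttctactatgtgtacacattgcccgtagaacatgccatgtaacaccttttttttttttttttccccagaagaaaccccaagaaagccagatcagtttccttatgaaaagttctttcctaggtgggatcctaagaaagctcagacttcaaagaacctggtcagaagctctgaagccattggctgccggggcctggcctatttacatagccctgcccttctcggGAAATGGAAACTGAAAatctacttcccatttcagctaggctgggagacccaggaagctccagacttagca
Ifih1, chr2:62646206-62646505, reverse strand: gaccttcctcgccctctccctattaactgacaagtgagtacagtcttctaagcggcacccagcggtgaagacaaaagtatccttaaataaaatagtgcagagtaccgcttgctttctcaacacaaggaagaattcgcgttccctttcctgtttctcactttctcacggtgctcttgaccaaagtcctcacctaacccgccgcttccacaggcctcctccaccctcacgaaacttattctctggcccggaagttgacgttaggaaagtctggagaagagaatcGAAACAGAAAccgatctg
Irf7, chr7:141266375-141266674, reverse strand: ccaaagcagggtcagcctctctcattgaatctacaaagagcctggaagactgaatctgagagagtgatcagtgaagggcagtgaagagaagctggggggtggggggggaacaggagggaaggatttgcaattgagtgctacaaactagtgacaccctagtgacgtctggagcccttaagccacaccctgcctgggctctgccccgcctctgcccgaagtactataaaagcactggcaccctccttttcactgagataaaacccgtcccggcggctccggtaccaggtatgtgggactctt
Samd9l, chr6:3399522-3399821, reverse strand: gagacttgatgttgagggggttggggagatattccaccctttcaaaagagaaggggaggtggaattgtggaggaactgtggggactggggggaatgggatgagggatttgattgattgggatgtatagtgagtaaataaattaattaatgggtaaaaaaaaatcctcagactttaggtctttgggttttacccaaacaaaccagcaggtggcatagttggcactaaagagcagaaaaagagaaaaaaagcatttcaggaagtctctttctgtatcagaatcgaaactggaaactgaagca
Ifit2, chr19:34550444-34550743, forward strand: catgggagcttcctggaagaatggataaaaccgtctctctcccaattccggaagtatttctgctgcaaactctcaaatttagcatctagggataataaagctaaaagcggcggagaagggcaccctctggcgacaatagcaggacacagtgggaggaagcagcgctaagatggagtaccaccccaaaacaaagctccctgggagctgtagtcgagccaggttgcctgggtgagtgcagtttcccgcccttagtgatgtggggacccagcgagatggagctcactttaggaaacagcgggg
Oasl1, chr5:114922990-114923289, forward strand: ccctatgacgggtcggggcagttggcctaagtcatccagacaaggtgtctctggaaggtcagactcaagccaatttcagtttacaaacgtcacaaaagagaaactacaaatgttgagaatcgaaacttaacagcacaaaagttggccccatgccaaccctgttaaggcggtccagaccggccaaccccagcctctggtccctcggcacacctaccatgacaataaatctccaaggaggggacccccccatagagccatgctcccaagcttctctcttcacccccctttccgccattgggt
In Oas1a the 2 matches, GAAATGGAAA and GAAACTGAAA, overlap and begin at positions -20 and -14, with the annotated start counted as 0. Ifih1 has GAAACAGAAA beginning at position 32. The windows of Irf7, Samd9l, Ifit2 and Oasl1 hold no match, which says only that these letters are not in this window. Ifit2 is shown by the rule for promoters, though it had to differ to be tested.

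Of the 35 genes, 23 have an entry in that table, and 11 of the 23 hold this core on either strand: Ifit1, Ifit3, Rsad2, Oas1a, Stat2, Ifih1, Ddx58, Bst2, Trim30a, Ddx60 and Eif2ak2. The same core occurs in 3.44% of all 32851 promoter windows of this length and in 3.99% of 27025 genes. Ifit1 holds GAAAGTGAAA and GAAACTGAAA on the opposite strand, at positions -104 to -95 and -85 to -76. Ifit3 holds the same pair of sequences, at -156 to -147 and -122 to -113. TTCNNNGAA, the gamma-activated site, which reads the same on both strands, was found in 5 of the 23 (Ifit2, Oas1a, Ifi35, Bst2 and Eif2ak2), against 9.55% of genes and 8.3% of windows. A match describes the letters and is not evidence that a factor binds there.

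Differences are given on the log2 scale, with the standard error of the fit, and "passed" means a limma adjusted p under 0.05 over all 12890 genes. The fit estimates the spread of each gene over all groups together. A pair of WSB/EiJ arrays stood apart from the others of their groups. The array labelled WSB/EiJ treated animal 3 lay at 0.0459 on a line from the NZW/LacJ mean, set at 0, to the WSB/EiJ mean, set at 1, over 12860 genes outside the set. On a second line, from the NZW/LacJ vehicle mean at 0 to the NZW/LacJ treated mean at 1, it lay at 0.0577. The array labelled WSB/EiJ vehicle animal 4 lay at 0.497 on the first line, vehicle animal 1 at 0.658, and the other WSB/EiJ arrays between 0.895 and 1.08. Over the tested interferon-stimulated genes, the median distance of the array labelled treated animal 3 was 0.112 from the NZW/LacJ vehicle mean and 0.388 from the mean of treated WSB/EiJ animals 1 and 2. Counts that rest on either array are therefore given with and without both. Hepatocyte marker genes were high on every array, with group means of 13.9 to 14.1 over 14 genes.

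The set was higher after treatment in NZW/LacJ than in its vehicle animals, and moved less in MA/MyJ and SM/J. As a description, the mean of the 30 tested genes was taken in each animal and the vehicle mean of its strain subtracted. The mean includes Ifit2, which had to differ to be tested, and no score without Ifit2 was made. In treated NZW/LacJ animals 1 to 4 this score was 1.12, 0.84, 0.53 and 0.98, while the 4 vehicle animals lay between -0.03 and 0.03. In treated MA/MyJ it ran from 0.32 to 0.56, against -0.18 to 0.12 in vehicle animals. In treated SM/J it ran from 0.15 to 0.45, against -0.05 to 0.07. The treated animals thus lay above all vehicle animals of their strain in these 3 strains, and the means ± SD were 0.868 ± 0.254, 0.422 ± 0.115 and 0.292 ± 0.123 (n = 4 each). In WSB/EiJ the 3 treated animals scored 0.12, 0.15 and -0.06, and vehicle animals 1 to 4 scored -0.31, -0.52, -0.17 and 0.996, so that 1 vehicle animal lay above every treated one. The mean of treated WSB/EiJ was 0.0710 with all arrays, 0.403 without vehicle animal 4 and 0.467 without both arrays. The same score over all 12890 genes had a group mean of at most 0.0714 in the treated groups. In NZW/LacJ it too separated the groups, at 0.044 to 0.100 in treated animals and at most 0.010 in vehicle animals. In MA/MyJ it ran from 0.019 to 0.052 in treated animals, against at most 0.009. Separation in these strains is thus also seen over all genes, at a smaller size. In SM/J the all-gene scores overlapped. Leaving out Ifi27l2b, the member with the highest average effect, gave means of 0.825 in NZW/LacJ, 0.368 in MA/MyJ, 0.230 in SM/J and 0.0390 in WSB/EiJ.

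**Figure D1:**
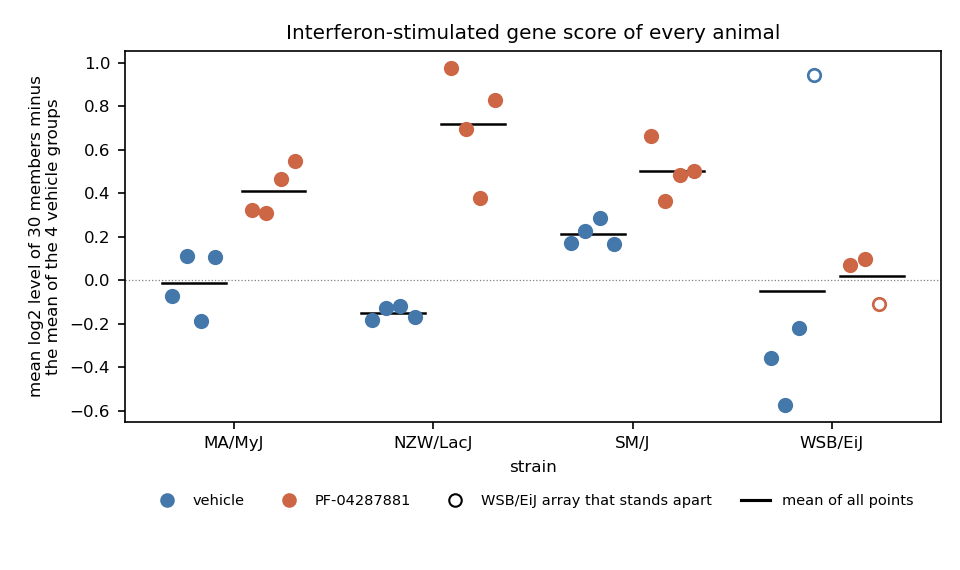
Mean log2 level of the 30 tested interferon-stimulated genes in each animal, minus the mean of the 4 vehicle group means, by strain and treatment; each point is 1 animal, the black line is the mean of the group, and open circles are the 2 WSB/EiJ arrays that stood apart. The NZW/LacJ vehicle animals lie between -0.18 and -0.12 and the treated ones between 0.38 and 0.97, while WSB/EiJ vehicle animal 4, at 0.94, lies above every other WSB/EiJ animal. The mean includes Ifit2, which had to differ to be tested.

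In NZW/LacJ 22 of the 30 tested genes rose and none fell, where 15.1% of all genes rose and 6.4% fell. At an unadjusted p under 0.05 limma gave 0 of the 30 as lower in NZW/LacJ, in MA/MyJ, in SM/J and in the average over strains. In WSB/EiJ it gave 4 as lower. The share of all genes lower at this unadjusted threshold was not counted. The median difference over the 30 genes was 0.73, against 0.02 over all genes. Ifit2 passed the filter on low values through 3 of the 31 arrays, 2 of them treated NZW/LacJ, so it had to differ to be tested and its call supports nothing. Without it, 21 of 29 genes rose and the median was 0.70. Treated and vehicle animals did not overlap in 22 of the 30, each with the treated animals higher, against 22% of all genes. Without the 2 WSB/EiJ arrays, which lowers the estimated spread, 24 of 30 rose, where 19.8% of all genes did, and 23 of 29 without Ifit2. Ifit1 and Parp9 were the genes added.

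Among the regulators, Usp18, the protease that removes Isg15 from proteins and restrains the interferon receptor, had the highest difference. Its vehicle levels in NZW/LacJ were 7.36, 7.55, 7.14 and 7.29, and its treated levels were 10.13, 9.29, 9.75 and 9.48. Every treated animal was above every vehicle animal, and the difference was 2.33 ± 0.48, or 5.03-fold (adjusted p = 0.000898). Irf7, the transcription factor that amplifies interferon production, was 7.38, 7.72, 7.70 and 7.63 in vehicle animals and 9.84, 9.29, 8.99 and 9.86 in treated ones. The groups did not overlap, and Irf7 rose by 1.89 ± 0.35, or 3.70-fold (adjusted p = 0.00036). Irf9, the DNA-binding part of the interferon-activated complex, rose by 0.66 ± 0.23 (adjusted p = 0.0396), a call lost on leaving out any 1 of the 8 NZW/LacJ arrays. Stat2, its partner in that complex, differed by 0.24 ± 0.26 and did not pass. Trim30a, a ubiquitin ligase that restrains inflammatory signalling, differed by 0.31 ± 0.19 and did not pass.

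Ifi27l2b, a small interferon-inducible membrane protein, was 7.94, 7.85, 7.85 and 7.79 in vehicle animals and 10.08, 10.09, 9.55 and 10.23 in treated ones. It rose by 2.13 ± 0.22, or 4.38-fold (adjusted p = 4.83e-07), and no treated animal overlapped the vehicle animals. Its only probe set is of a type that can match transcripts of related genes. Ifi27l2a, the paralog of Ifi27l2b, was 7.67, 7.77, 7.80 and 7.63 in vehicle animals and 9.53, 8.77, 7.78 and 10.03 in treated ones. The mean difference was 1.31 ± 0.32 (adjusted p = 0.00458), but treated animal 3 lay within the vehicle range. Oas1a, an oligoadenylate synthetase that activates RNA decay on sensing double-stranded RNA, was 7.20, 7.20, 7.28 and 7.30 in vehicle animals. Treated animals had 9.16, 8.40, 7.98 and 8.99, all above the vehicle animals, and the rise was 1.39 ± 0.27, or 2.62-fold (adjusted p = 0.000489). The window of Oas1a above holds 2 overlapping response element cores, while those of Irf7 and Samd9l, which also passed, hold no match. Whether the core goes with the rise was not tested.

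Rtp4, a receptor transport protein that restrains some RNA viruses, was 8.79, 8.90, 9.02 and 8.93 in vehicle NZW/LacJ and 10.57, 10.50, 9.95 and 10.40 after treatment. It rose by 1.44 ± 0.36, or 2.72-fold (adjusted p = 0.00522). Samd9l, which restrains viral translation and cell growth, was 7.23, 7.37, 7.13 and 7.40 and then 9.30, 8.49, 8.28 and 8.51, a rise of 1.36 ± 0.28 (adjusted p = 0.00106). Both genes separated the groups without overlap. The other effectors that rose were Ifit2 (1.31), Ifit3 (0.94), Oasl1 (1.03), Bst2 (0.66), Herc6 (0.41), Xaf1 (0.75) and Lgals3bp (0.62). Of these, Ifit2 and Ifit3 bind viral RNA, Bst2 tethers budding virus to the cell and Herc6 attaches Isg15 to proteins. Xaf1 passed at an adjusted p of 0.0486 and no longer did when any 1 of 26 of the arrays was left out. Ifit3 and Oasl1 each lost their call without any 1 of 6 NZW/LacJ arrays, and Lgals3bp without treated animal 1 or 4. Ifit1 differed by 1.22 ± 0.45 with an adjusted p of 0.0545.

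Of the genes that sense foreign RNA or DNA, Ifih1, Ddx58, Dhx58 and Zbp1 rose in NZW/LacJ, and Eif2ak2 did not pass. Ifih1, a sensor of long double-stranded RNA, was 9.34, 9.24, 9.37 and 9.41 in vehicle animals and 10.39, 10.28, 10.18 and 10.30 after treatment. Its rise of 0.95 ± 0.16 (adjusted p = 8.94e-05) was nearly the same in each animal. Ddx58, which encodes the sensor RIG-I, rose by 0.77 ± 0.16, while its other probe sets gave -0.19 and 0.59. Dhx58, a regulator of Ifih1 and Ddx58, rose by 0.67 ± 0.23, and Zbp1, a sensor of left-handed nucleic acid helices, by 0.54 ± 0.15. Among the ADP-ribosylation genes, Parp14 rose by 1.02 ± 0.18 (adjusted p = 0.000183) and Dtx3l by 0.56 ± 0.19. Dtx3l and Dhx58 each lost their call without any 1 of 7 NZW/LacJ arrays. Parp9, which works in a complex with Dtx3l, differed by 0.58 ± 0.22 (adjusted p = 0.0618). Ifi35, a partner of the adaptor Nmi, rose by 0.70 ± 0.10 (adjusted p = 1.41e-05), with vehicle animals at 10.40 to 10.58 and treated animals at 11.07 to 11.36.

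A few effectors did not follow. Rsad2, which encodes viperin, was 9.67, 9.58, 9.76 and 9.50 in vehicle NZW/LacJ and 10.28, 9.55, 8.93 and 10.39 in treated animals, so treated animals lay on both sides of the vehicle range. The difference was 0.16 ± 0.35, and the other probe sets of the gene gave -0.30 and -0.11. Cmpk2, a nucleotide kinase encoded beside Rsad2, differed by 0.13 ± 0.24. Mx2, a dynamin-like GTPase, differed by -0.10 ± 0.13, and Eif2ak2, the kinase that halts translation on sensing double-stranded RNA, by 0.06 ± 0.13. None of these passed.

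**Figure D2:**
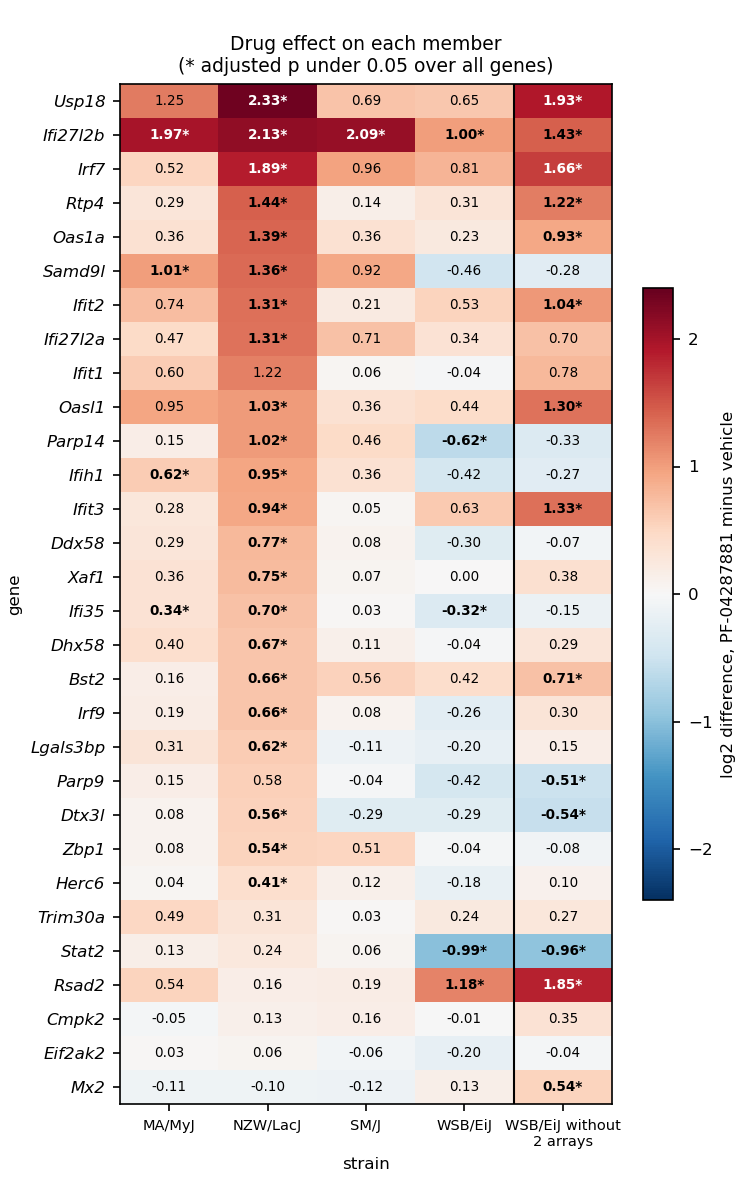
Heat map of the log2 difference, treated minus vehicle, for the 30 tested interferon-stimulated genes (rows) in the 4 strains, with a last column for WSB/EiJ without the 2 arrays that stood apart; a star marks an adjusted p under 0.05. The NZW/LacJ column holds 22 stars, MA/MyJ 4, SM/J 1 and WSB/EiJ 5, and the last column holds 14.

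The treated NZW/LacJ animals were not alike. Animal 3 was the lowest of the treated animals in 22 of 30 genes and the highest in 0, where it was lowest in 22.1% of all genes tested and highest in 25.7%. Ifit2 is among the genes lowest in animal 3. Of the 22 genes that rose, 9 stood in animal 3 at less than 50% of the mean rise of animals 1, 2 and 4, and 6 stood at 80% or more of it. Ifi27l2a was 0.07 above the vehicle mean in animal 3 and 1.73 above it on average in animals 1, 2 and 4, and Lgals3bp 0.07 against 0.80. Ifit2, also among the 9, was 0.03 against 1.74. It was tested only because 3 arrays were high, treated NZW/LacJ animals 1 and 4 among them, so its difference between animals supports nothing. Usp18, in contrast, was 2.42 above the vehicle mean in animal 3 and 2.30 in the others, Ddx58 0.79 against 0.77, and Ifi35 0.74 against 0.69. Animal 3 thus showed part of the set at the level of the others and part near the vehicle level. Rsad2 and Cmpk2, which did not pass, were 0.70 and 0.21 below the vehicle mean in animal 3.

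Markers of several other liver cells also differed among the treated animals. The mean of 15 Kupffer cell markers was 9.95, 9.48, 8.93 and 10.40 in treated NZW/LacJ animals 1 to 4, against 9.03 to 9.45 in vehicle animals. The mean of 12 markers of monocytes and lipid-laden macrophages was 8.95, 7.74, 7.67 and 8.90, against 7.15 to 7.32. Animal 3 was the lowest of the treated animals on both lists, and on the Kupffer list it lay below the vehicle animals. On the monocyte and macrophage list the treated animals ran in the same order as in the score of the interferon-stimulated genes. On the Kupffer list animal 4 was above animal 1, while in the score it was below. Stellate cell markers averaged 9.98, 9.46, 9.09 and 10.28 in treated animals 1 to 4, against 9.48 to 9.73 in vehicle animals. Sinusoidal endothelial markers averaged 9.07, 8.77, 8.39 and 9.42, against 9.03 to 9.17. Lymphocyte lists differed less, and animal 3 was again the lowest. NK cell markers averaged 6.42, 6.21, 6.17 and 6.51, against 6.18 to 6.27, and T cell markers 5.64, 5.54, 5.53 and 5.82, against 5.55 to 5.75. The part of these cells in the result was not tested.

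**Figure D3:**
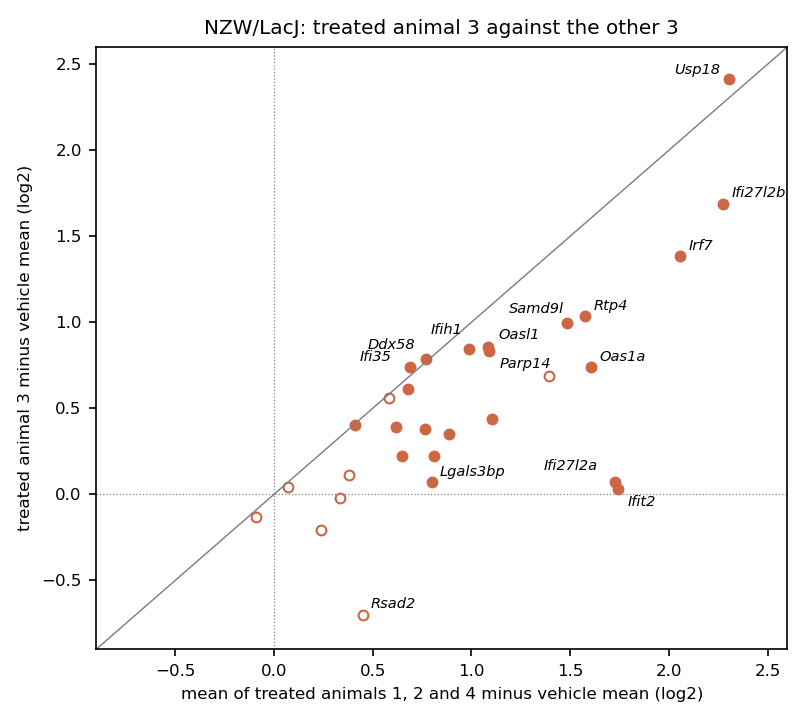
Each point is 1 of the 30 tested genes in NZW/LacJ: the horizontal axis is the mean rise of treated animals 1, 2 and 4 over the vehicle mean and the vertical axis the rise of treated animal 3, both in log2 units; filled points passed in NZW/LacJ and the diagonal marks an equal rise. Usp18 (2.30 and 2.42) lies at the diagonal, while Ifi27l2a (1.73 and 0.07) lies near the horizontal axis. Ifit2 (1.74 and 0.03) also lies there, but it had to be high in some treated animals to be tested.

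In MA/MyJ, the other strain coded for Kupffer cell vacuolation, 4 of the 30 genes rose and none fell, where 3.17% of all genes rose. They were Ifi27l2b, Samd9l, Ifih1 and Ifi35. Without the 2 WSB/EiJ arrays the count was 8, against 6.38% of all genes, adding Dhx58, Oasl1, Trim30a and Usp18. When the 8 MA/MyJ arrays were compared alone it was 10, against 6.1% of all genes. The median difference over the 30 genes was 0.32 (0.01 over all genes) and 28 of the 30 values were above 0. Treated and vehicle animals did not overlap in 12 genes, all with the treated animals higher, against 10.7% of all genes.

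Ifi27l2b was 7.38, 7.65, 7.61 and 7.81 in vehicle MA/MyJ and 9.12, 9.64, 9.64 and 9.93 in treated animals. It rose by 1.97 ± 0.22, or 3.93-fold (adjusted p = 9.88e-06). Samd9l was 7.54, 7.55, 6.98 and 7.65 and then 8.19, 8.45, 8.60 and 8.51, a rise of 1.01 ± 0.28 (adjusted p = 0.0401). In both genes every treated animal was above every vehicle animal. Ifih1 was 9.53, 9.51, 9.42 and 9.75 and then 10.20, 10.04, 10.06 and 10.38, a rise of 0.62 ± 0.16 (adjusted p = 0.0214). Ifi35 was 10.76, 10.97, 10.90 and 11.10 and then 11.23, 11.35, 11.18 and 11.33, a rise of 0.34 ± 0.10 (adjusted p = 0.0448). The MA/MyJ count fell to 1, Ifi27l2b alone, without vehicle animal 1, 2 or 3 or treated animal 4. Usp18 was 7.71, 7.45, 7.19 and 8.06 in vehicle animals and 8.24, 8.96, 9.10 and 9.09 in treated ones, with no overlap, and the difference of 1.25 ± 0.48 did not pass (adjusted p = 0.14). Irf7 differed by 0.52 ± 0.35 and Rtp4 by 0.29 ± 0.36, neither of which passed.

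In SM/J, Ifi27l2b was the 1 gene of 30 that rose, none fell, and 1.6% of all genes rose. It was 8.42, 8.02, 8.12 and 8.45 in vehicle animals and 10.53, 10.53, 10.72 and 9.59 in treated ones, a rise of 2.09 ± 0.22, or 4.27-fold (adjusted p = 4.3e-06). Treated animal 4 had the smallest rise and still lay above every vehicle animal. Without the 2 WSB/EiJ arrays 7 of 30 rose, against 3.36% of all genes, adding Bst2, Ifih1, Irf7, Parp14, Samd9l and Zbp1. With the 8 SM/J arrays alone 6 rose, against 2.08%. Zbp1 was 7.50, 7.73, 7.12 and 7.09 in vehicle animals and 7.94, 7.70, 7.90 and 7.95 in treated ones, so treated animal 2 fell within the vehicle range, and the difference was 0.51 ± 0.15 (adjusted p = 0.0782). Irf7 was 7.97, 7.91, 8.13 and 7.89 and then 9.16, 8.72, 8.83 and 9.02, without overlap, and its difference of 0.96 ± 0.35 did not pass (adjusted p = 0.168). The median over the 30 genes was 0.13, and 25 of 30 values were above 0. Groups did not overlap in 9 genes with the treated animals higher, against 6.48% of all genes, and in 2, Mx2 and Dtx3l, with the treated animals lower, against 7.15%.

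**Figure D4:**
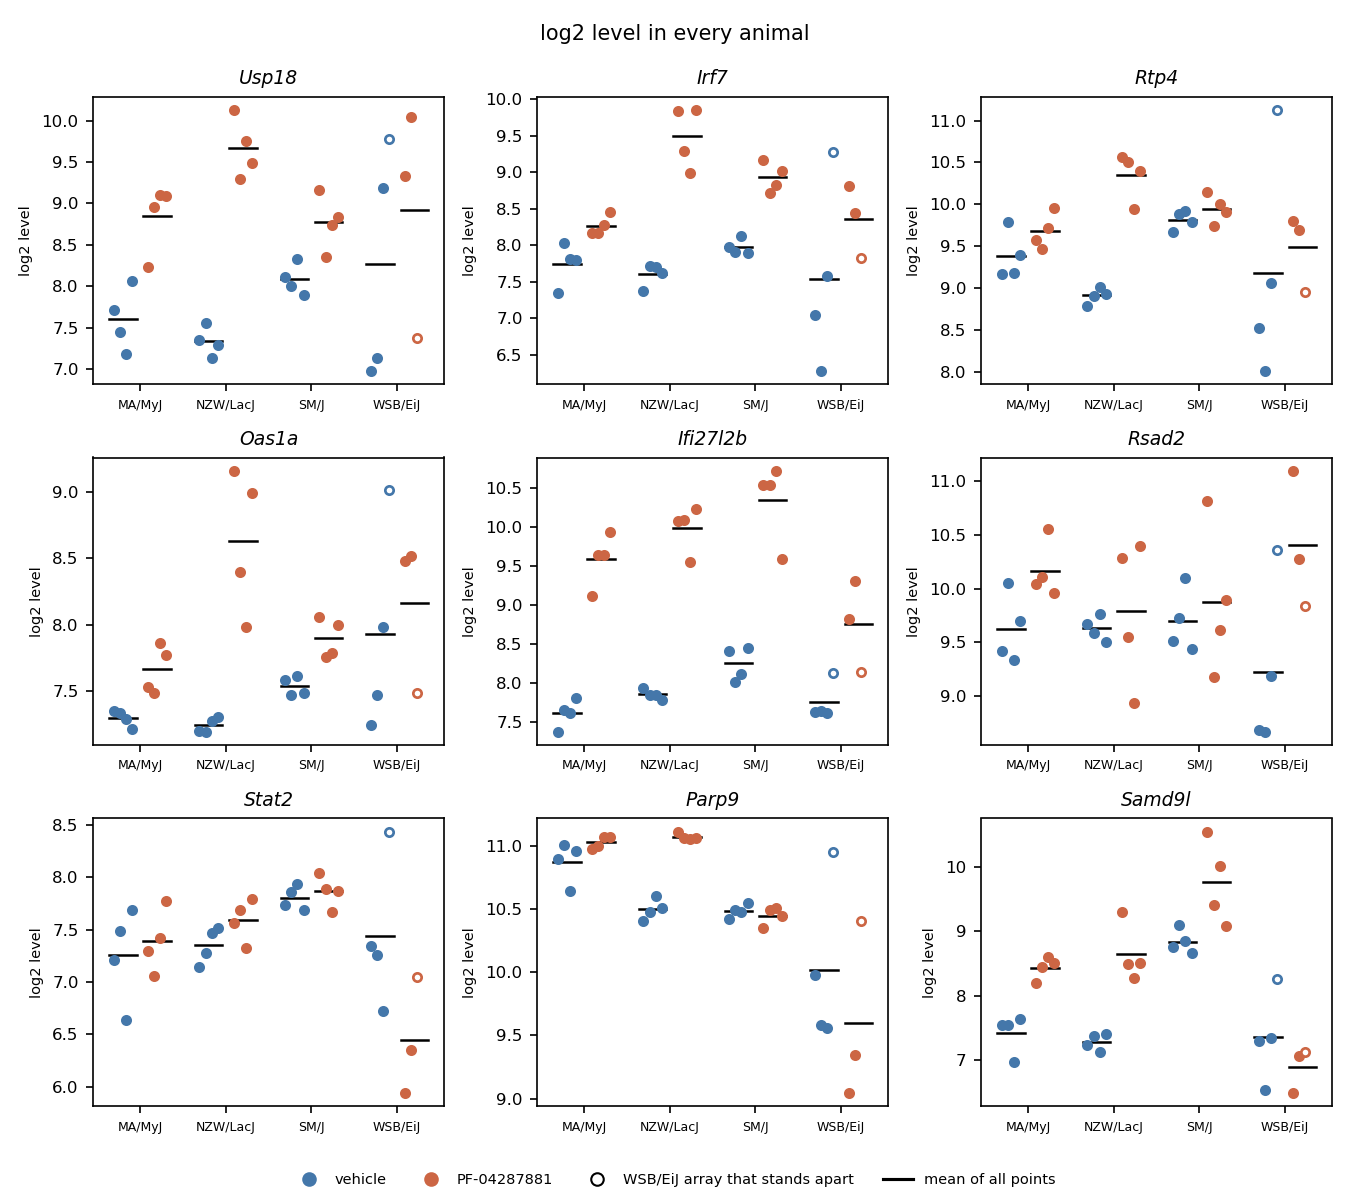
Log2 level in each animal of Usp18, Irf7, Rtp4, Oas1a, Ifi27l2b, Rsad2, Stat2, Parp9 and Samd9l, 1 panel a gene, by strain, with vehicle and treated animals in different colours and the 2 WSB/EiJ arrays that stood apart as open circles. Ifi27l2b is higher in every treated animal than in every vehicle animal of its strain, whereas Stat2 and Parp9 in WSB/EiJ are lowest in treated animals 1 and 2.

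In WSB/EiJ the answer turned on 2 arrays. Vehicle animal 4 had the highest level of its group in 30 of 30 genes, where it was highest in 33.4% of all genes. The median over the 30 genes was 1.22 above the mean of vehicle animals 1 to 3, against 0.00 over all genes, and 19 of 30 were more than 1 log2 unit above it, against 1.68% of all genes. Ifit1, which sequesters viral RNA, was 9.80 in animal 4 and 6.60 on average in the others, a 9.22-fold difference. Rtp4 was 11.13 against 8.53, Irf7 9.27 against 6.97, Ifit3 9.41 against 7.12 and Oasl1 9.52 against 7.33. The level of vehicle animal 4 was above that of both treated animals 1 and 2 in 26 of 30 genes, against 41.6% of all genes. Ifi27l2b, the gene that rose in all strains, was 8.12 in animal 4 and 7.63 in the others, below all 3 treated animals. Marker means in this animal were 8.21 for Kupffer cells, 6.98 for monocytes and lipid-laden macrophages, 7.46 for plasmacytoid dendritic cells and 6.25 for NK cells. Vehicle animals 1 to 3 ran from 7.94 to 8.56, 6.89 to 6.91, 7.39 to 7.58 and 6.12 to 6.19 on these lists, in the same order. Animal 4 was thus above the others on the monocyte and NK cell lists and within their range on the Kupffer and plasmacytoid lists. Markers of interferon gamma averaged 6.79 in animal 4, against 6.30 to 6.43, sinusoidal endothelial markers 8.705, against 8.998 to 9.095, and hepatocyte markers 13.96, against 14.08 to 14.22. The part of these differences in the levels of the 30 genes was not tested.

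With all 7 arrays, 2 of 30 genes rose in WSB/EiJ (6.91% of all genes) and 3 fell (12.4%). Rsad2 and Ifi27l2b rose, and Stat2, Parp14 and Ifi35 fell. Without the array labelled treated animal 3, 4 rose (13.8% of all genes) and 5 fell (18.6%). Without vehicle animal 4, 8 rose (6.7%) and none fell. Without both, 11 rose (12.4%) and 3 fell (18.6%), the latter being Stat2, Parp9 and Dtx3l, and 10 of 29 rose when Ifit2 was left out. Groups did not overlap in 1 gene, Ifi27l2b, with all arrays (6.31% of all genes were higher without overlap). Without both arrays, 16 genes were higher without overlap, against 23.4% of all genes, and 4 lower (Stat2, Ifih1, Parp9 and Dtx3l), against 23.6%. Compared alone, the 7 WSB/EiJ arrays gave 0 calls among the 30 with limma, 2 at an unadjusted p under 0.05, and 0.031% of all genes were called.

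Usp18 was 6.98, 7.13, 9.18 and 9.78 in vehicle WSB/EiJ animals 1 to 4 and 9.34, 10.04 and 7.37 in treated animals 1 to 3. Vehicle animal 3 was also high in this gene, and the difference was 0.65 ± 0.51 with all arrays (adjusted p = 0.41) and 1.93 ± 0.42 without both (adjusted p = 0.00106). Irf7 was 7.05, 6.28, 7.58 and 9.27 in vehicle animals and 8.81, 8.44 and 7.82 in treated ones. It differed by 0.81 ± 0.38 with all arrays and by 1.66 ± 0.26 without both (adjusted p = 3.98e-05). Rsad2, which did not differ detectably in NZW/LacJ, was 8.68, 8.66, 9.19 and 10.36 in vehicle WSB/EiJ and 11.10, 10.27 and 9.83 in treated animals. It rose by 1.18 ± 0.38 with all arrays (adjusted p = 0.03) and by 1.85 ± 0.38 without both (adjusted p = 0.000648), and its other probe sets gave 0.74 and 0.94 with all arrays. Ifi27l2b was 7.63, 7.64, 7.62 and 8.12 and then 8.82, 9.31 and 8.14, a rise of 1.00 ± 0.24 with all arrays (adjusted p = 0.00439) and 1.43 ± 0.25 without both. Leaving out treated animal 2 alone ended the Ifi27l2b call, at 0.72. Leaving out vehicle animal 1 or 2 or treated animal 1 or 2 ended the Rsad2 call, at values from 0.83 to 1.25. Without both arrays these sizes rest on 2 treated and 3 vehicle animals. The standard errors and adjusted p here use a spread estimated over the groups of all strains, not over WSB/EiJ alone. With all arrays the SD of Usp18 was 1.42 in vehicle and 1.38 in treated WSB/EiJ, against 0.172 to 0.411 in the other groups.

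Stat2 went the other way in WSB/EiJ. It was 7.35, 7.25, 6.73 and 8.44 in vehicle animals and 5.94, 6.35 and 7.05 in treated ones, and fell by 0.99 ± 0.28 with all arrays (adjusted p = 0.0133) and by 0.96 ± 0.23 without both (adjusted p = 0.0025). A second probe set of Stat2 gave -0.32 with all arrays. The call was lost without vehicle animal 4 or treated animal 1 alone, at -0.66 and -0.74. Parp9 was 9.98, 9.58, 9.56 and 10.96 in vehicle animals and 9.05, 9.35 and 10.41 in treated ones. Its difference was -0.42 ± 0.24 with all arrays, which did not pass, and -0.51 ± 0.11 without both (adjusted p = 0.000997). Dtx3l gave -0.29 ± 0.21 and -0.54 ± 0.15 (adjusted p = 0.00732 without both). Parp14 was 7.86, 7.63, 8.04 and 8.84 and then 7.38, 7.64 and 7.39, a fall of 0.62 ± 0.19 with all arrays (adjusted p = 0.0247) that did not pass without both, at -0.33 ± 0.18. Ifi35 was 10.98, 10.91, 11.06 and 11.28 and then 10.64, 11.03 and 10.54, a fall of 0.32 ± 0.11 with all arrays (adjusted p = 0.0338) and -0.15 ± 0.11 without both, which did not pass.

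**Figure D5:**
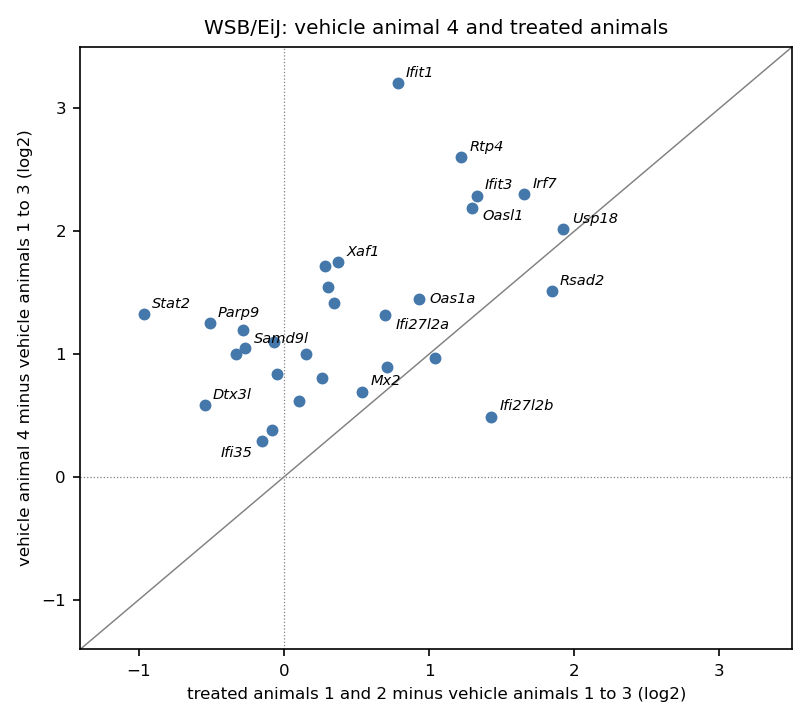
Each point is 1 of the 30 tested genes in WSB/EiJ: the horizontal axis is the mean of treated animals 1 and 2 and the vertical axis the level of vehicle animal 4, each minus the mean of vehicle animals 1 to 3 in log2 units, so both axes share those 3 animals. Every gene is above 0 on the vertical axis, with Ifit1 at 3.20, while Stat2 lies at -0.96 on the horizontal axis.

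Averaged over the 4 strains with equal weight, 17 of 30 genes rose and none fell, where 13.3% of all genes rose and 8.92% fell. Without both arrays 24 rose, against 18.6% of all genes, adding Ddx58, Dhx58, Herc6, Ifit1, Irf9, Lgals3bp and Xaf1. Ifi27l2b had an average effect of 1.80 ± 0.11 (adjusted p = 8.12e-11), Usp18 of 1.23 ± 0.24 (adjusted p = 0.000595) and Irf7 of 1.04 ± 0.18 (adjusted p = 0.000136). Ifi27l2a had 0.71 ± 0.17. Ifit2, at 0.70 ± 0.16, had to differ to be tested, and without it 16 of 29 rose, and 23 of 29 without both arrays. With all arrays the value was above 0 in all 4 strains in 13 of the 30 genes. The NZW/LacJ value was then the highest of the 4 strains in 26 of 30. Of all genes, 15.1% rose in NZW/LacJ, also the highest share of the 4 strains. The shares of all genes with either pattern were not counted, and no count without both arrays was made, so neither count is read as particular to the set. The remaining genes that rose on average were Samd9l (0.71), Oasl1 (0.69), Oas1a (0.59), Rtp4 (0.54), Rsad2 (0.52), Ifit3 (0.47), Bst2 (0.45), Ifih1 (0.38), Trim30a (0.27), Zbp1 (0.27), Parp14 (0.25) and Ifi35 (0.19). Leaving out any 1 of 21 arrays ended the average call of Parp14, any 1 of 19 that of Trim30a and any 1 of 9 that of Rtp4. For Rsad2 and for Ifit3 it was any 1 of 13. In Samd9l, Ifih1, Zbp1, Parp14 and Ifi35 the WSB/EiJ value was below 0 with all arrays, so their average joins opposite signs.

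Whether the drug effect differed between strains was tested directly. The interaction of strain and treatment passed for 6 of 30 genes (19.4% of all genes), namely Ifi35, Parp14, Ifih1, Samd9l, Ddx58 and Ifi27l2b, and for 18 without both arrays (33.2%). The 6 genes are thus a share near that over all genes. The NZW/LacJ effect exceeded the mean of the other 3 strains in 8 of 30 genes (11.3% of all genes), and in 14 without both arrays (16.5%). The excess was 0.68 ± 0.11 for Ifi35 (adjusted p = 0.000188) and 1.03 ± 0.21 for Parp14 (adjusted p = 0.00121), and Oas1a had 1.07 ± 0.31 (adjusted p = 0.019). Because the WSB/EiJ arrays enter that comparison, NZW/LacJ was also set against MA/MyJ and SM/J alone. Then 2 of 30 genes passed (4.86% of all genes), Ifi35 with an excess of 0.52 ± 0.12 (adjusted p = 0.0102) and Parp14 with 0.72 ± 0.22 (adjusted p = 0.048). Usp18 had 1.36 ± 0.58 and Irf7 1.15 ± 0.43 in this comparison, and neither passed. When the spread was estimated without both WSB/EiJ arrays 15 of 30 passed (8.7% of all genes), and when it was estimated from the arrays of the 3 strains alone 17 passed (11.2%). Among the 15 was Rtp4, with 1.23 ± 0.21 (adjusted p = 0.000438). The number of genes that set NZW/LacJ apart from MA/MyJ and SM/J thus depended on whether the WSB/EiJ arrays entered the estimate of spread. Ifi27l2b, with 0.10 ± 0.27, showed no detectable difference between NZW/LacJ and the mean of those 2 strains.

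Vehicle levels differed between strains for 9 of 30 genes, a smaller share than the 56.5% of all genes, and for 21 without both arrays, a share near the 67.1% of all genes. Probe sequences need not match every strain equally, and their part in a difference of level between strains was not tested. Samd9l had the widest range, with a vehicle mean of 8.84 in SM/J (8.76, 9.10, 8.85 and 8.67) against 7.43 in MA/MyJ, 7.36 in WSB/EiJ and 7.28 in NZW/LacJ. SM/J exceeded MA/MyJ by 1.41 ± 0.28 (adjusted p = 0.000879) and NZW/LacJ by 1.56 ± 0.28, while the other 3 strains did not differ detectably. Vehicle SM/J therefore lay above the treated MA/MyJ animals (8.19 to 8.60) in this gene.

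Dtx3l and Parp9, which act as a complex, ran in a similar order. The vehicle means of Dtx3l were 10.05 in MA/MyJ, 9.80 in SM/J, 9.49 in NZW/LacJ and 9.12 in WSB/EiJ, and those of Parp9 were 10.88, 10.49, 10.50 and 10.02. WSB/EiJ was lower than MA/MyJ by 0.93 ± 0.19 in Dtx3l and 0.86 ± 0.22 in Parp9, and by 1.08 ± 0.13 and 1.17 ± 0.09 without both arrays. SM/J and NZW/LacJ were neighbours that did not differ detectably in either gene. Bst2 was highest in MA/MyJ, at 11.04, and lower in NZW/LacJ by 0.59 ± 0.17, in SM/J by 0.48 ± 0.17 and in WSB/EiJ by 0.78 ± 0.17. Lgals3bp, a secreted glycoprotein that binds galectins, was lowest in NZW/LacJ (10.83, 10.96, 10.93 and 10.90), and SM/J exceeded it by 0.74 ± 0.18 (adjusted p = 0.00435). Ifi35, Herc6, Parp14 and Trim30a were the other genes that passed, and Ifi35 was also lowest in NZW/LacJ, 0.44 ± 0.10 below MA/MyJ. Usp18, which rose most in NZW/LacJ, also had its lowest vehicle mean there, at 7.33, but the difference between strains did not pass. The vehicle means were 7.60 in MA/MyJ, 8.09 in SM/J and 8.27 in WSB/EiJ, or 7.76 in WSB/EiJ without vehicle animal 4. WSB/EiJ vehicle animals 1 and 2, at 6.98 and 7.13, lay below the NZW/LacJ mean.

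Oasl2, Mx1 and Ddx60 had a probe set but did not pass the filter, since 2, 0 and 2 of the 31 arrays lay above the value of 6.49 that it requires in 3 arrays. Oasl2, a relative of Oasl1, was 3.70, 4.99, 4.12 and 3.96 in vehicle NZW/LacJ and 7.01, 5.90, 4.46 and 7.23 in treated animals. Ddx60, a helicase that aids RNA sensing, was 4.91 to 5.00 in vehicle NZW/LacJ and 5.89 to 6.61 in treated animals, and was 7.20 in WSB/EiJ vehicle animal 4 against 4.63 to 4.99 in the others. Mx1, which is defective in many inbred strains, stayed between 3.54 and 6.43 on all arrays. These values lie in the low range of the array and were not tested. Of the 33 genes, 18 had 1 probe set and 15 had several. Of the 14 other probe sets bright enough to compare, 10 had the same sign in NZW/LacJ as the one used. Herc6 was 0.41 with the probe set used and 1.05, 0.79 and 0.33 with the others, Zbp1 0.54 and 1.09, and Trim30a 0.31 and 0.96. The opposite sign came from the other probe sets of Rsad2 (-0.30 and -0.11, against 0.16). It also came from 1 of Ddx58 (-0.19, against 0.77) and 1 of Eif2ak2 (-0.31, against 0.06). The probe sets used for Ifi27l2b and Ifi35 are of types that can match transcripts of related genes. The other probe sets of Ifi35 gave 0.55 and 0.71 in NZW/LacJ. Ifi27l2b had no other, and the part of related transcripts in its rise was not tested.

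Other genes of the pathway were taken from lists drawn up alongside the set. Of all genes, 15.1% rose and 6.4% fell in NZW/LacJ, 13.3% and 8.92% on average, and 6.91% and 12.4% in WSB/EiJ. Without both arrays 19.8% rose in NZW/LacJ and 18.6% on average, while 12.4% rose and 18.6% fell in WSB/EiJ. The counts below are to be read against these shares. Of 50 further interferon-stimulated genes, 40 were tested, and 16 rose and none fell in NZW/LacJ, with a median difference of 0.25. The highest were Rnf213 (1.32 ± 0.21), a ubiquitin ligase, Ifi30 (1.07 ± 0.17), a lysosomal thiol reductase, Rbm43 (0.99 ± 0.18) and Parp11 (0.96 ± 0.31). On average over strains 8 rose and 1 fell, led by Ifi30 (0.94), Rnf213 (0.52), Slfn2 (0.39) and Ifitm3 (0.36), and Lgals9 fell by 0.19. In WSB/EiJ 1 rose and 7 fell with all arrays. Without both arrays 18 rose in NZW/LacJ, 12 rose and 2 fell on average, and 2 rose and 11 fell in WSB/EiJ. Of 25 tested genes of nucleic acid sensing and interferon induction, 7 rose and 1 fell in NZW/LacJ. These included Ikbke (1.41 ± 0.25), a kinase that activates Irf3 and Irf7, Rnaseh2b (0.92 ± 0.14), a subunit of an enzyme that removes RNA from DNA hybrids, Irf8 (0.86 ± 0.20), a myeloid transcription factor, and Tlr3 (0.81 ± 0.16), an endosomal RNA receptor. Tbk1, the kinase related to Ikbke, fell by 0.38 ± 0.09. On average 10 rose and 1 fell, led by Rnaseh2b (0.51), Rnaseh2a (0.38), Ikbke (0.36) and Irf8 (0.36), and Irf3 fell by 0.28. Without both arrays 9 rose and 1 fell on average, and 8 rose and 1 fell in NZW/LacJ.

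Of 16 tested genes of the interferon receptors and their signalling, 4 rose in NZW/LacJ and none fell. Of all genes, 15.1% rose there and 6.4% fell. Tyk2 (0.91 ± 0.15) and Ifnar1 (0.28 ± 0.07), a kinase and a chain of the type I receptor, were among the 4. The others were Il10rb (0.78 ± 0.18), a chain of the interferon lambda receptor, and the phosphatase Ptpn1 (0.21 ± 0.07). On average Il10rb (0.35), Ifnar1 (0.23) and Ptpn1 (0.16) rose, and without both arrays 5 rose and 1 fell. Of all genes, 13.3% rose on average, and 18.6% did without both arrays. The interferons themselves gave little to read. Of 19 listed, 8 had a probe set and 1, Ifna2, passed the filter, and it fell by 0.33 ± 0.09 in NZW/LacJ. Ifnb1 had group means of 5.65 to 5.94 and Ifng of 3.79 to 4.00, below the filter value, and neither was tested. Of 6 tested markers of interferon gamma, Gbp2, a guanylate-binding GTPase, rose by 1.15 ± 0.40 in NZW/LacJ (adjusted p = 0.0391).

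Several marker lists of other liver cells moved with treatment, and counts are over the whole of each list named. Of 15 Kupffer cell markers, 10 rose on average and none fell, led by Cd5l (1.12) and Timd4 (1.09), with 7 rising in MA/MyJ, 7 rising and 1 falling in WSB/EiJ, 2 rising in NZW/LacJ and 0 in SM/J. Without both arrays 10 rose and 1 fell on average, with 9 rising in MA/MyJ, 7 rising and 1 falling in WSB/EiJ, 5 rising in NZW/LacJ and 0 in SM/J. Of 11 tested markers of monocytes and lipid-laden macrophages, 8 rose on average, led by Cd68 (1.99) and Gpnmb (1.96), with 7 rising in MA/MyJ, 7 in NZW/LacJ, 3 in WSB/EiJ and 1 in SM/J, and each of these counts was the same without both arrays. The summed level of that list, as a mean over its genes, ran from 6.97 to 7.20 in vehicle and 8.21 to 9.09 in treated MA/MyJ, and from 7.15 to 7.32 and 7.67 to 8.95 in NZW/LacJ. The ranges of treated MA/MyJ and treated NZW/LacJ overlapped. Of 12 sinusoidal endothelial markers 9 fell on average, led by Gpr182 (-0.66) and Tek (-0.58), and 9 fell without both arrays. Of 9 tested markers of plasmacytoid dendritic cells, which make much interferon, 2 rose on average, Ly6d (0.82) and Irf8 (0.36), and the defining marker Siglech, with group means of 5.81 to 6.11, did not pass the filter; without both arrays 2 also rose. No marker of neutrophils, T cells, NK cells, stellate cells or cholangiocytes passed on average with limma, with or without both arrays. Counts are not given here for the conventional dendritic cell, B and plasma cell, and hepatocyte lists. Their vehicle and treated means in NZW/LacJ were 6.42 and 6.57, 8.07 and 7.97, and 13.98 and 13.86, in that order. Single genes moved further there, Cd83 of the dendritic list from 6.54 to 7.84 and Tat of the hepatocyte list from 13.06 to 12.35. The part of any of these cells in the rise of the interferon-stimulated genes was not tested.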

How the data were processed

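Total liver RNA from 31 mice was measured on 31 Affymetrix arrays. The authors deposited 1 table of log2 expression values for 44721 probe sets, made with Affymetrix Power Tools and RMA per the submitters' processing notes, which background-corrects, quantile-normalizes and summarizes each probe set and so assumes alike intensity distributions. Tool versions, scan dates and detection calls are not given in the sources used here. Deposited values ran from 2.71 to 14.9 and array medians from 6.43 to 6.54.

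Platform annotation gave 1 symbol for 34728 probe sets, several for 872 and none for 9121. Probe sets with several symbols were left out, and 34525 of the others matched a gene of the RefSeq table. For each of 18147 genes the probe set with the highest mean was kept, and a gene was tested where its value was above 6.49, the median of all values, in at least 3 arrays. This left 12890 genes and set 5257 aside. Groups follow the submitters' titles. limma 3.58.1 in R 4.3.3 fitted 1 mean per group over all 31 arrays (23 residual and 3.17 prior degrees of freedom), with two-sided contrasts and Benjamini-Hochberg adjustment over all genes tested. Standard errors are those of the moderated fit.

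The alternatives were other filters, the mean of all probe sets, median centring, an intensity trend with a robust prior, the compared groups alone, a replicate block, and leaving out each array or both WSB/EiJ arrays. Counts without Ifit2 were added after seeing the data. On simulated data for the 12890 genes, the NZW/LacJ contrast recovered 99 of 100 genes changed by 1 log2 unit and 59 of 100 changed by 0.5, with 13 false calls. The interaction recovered 83 and 29. The simulation gave each gene the same normal spread in every group and held no array that stands apart. Its recovered shares therefore need not hold for this set, where Ifit1, at 1.22 in NZW/LacJ, did not pass. The genes and lists were chosen with earlier results of these data known. Genes given in every animal are the 5 with the highest passing difference in each strain, in the average and in vehicle levels. Promoters were taken from a RefSeq table of GRCm38.p6.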

Additional observations from a re-analysis of the deposited data

Results flagged for a closer look

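Single animals lay far from the rest of their group in 9 of 133 groups of values tested, where chance gives about 1 in 20. Samd9l was 6.98 in MA/MyJ vehicle animal 3, and Usp18 was 8.24 in MA/MyJ treated animal 1, each the lowest of its group. Parp9 was 11.1 in NZW/LacJ treated animal 1, above 3 animals that were nearly equal. In SM/J, Ifi35 was 10.7 in vehicle animal 1, Lgals3bp was 11.5 in vehicle animal 2 and 11.4 in treated animal 2, each the lowest. Treated SM/J animal 4 was the lowest for both Ifi27l2b (9.59) and Ifih1 (9.99). Ifi27l2b was 8.12 in WSB/EiJ vehicle animal 4, the highest of its group.

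The drug effect differed between strains, by the interaction test of limma, in 6 genes of the 30 tested, a share near the 19.4% of all genes that passed this test. The adjusted p was 9.29e-05 for Ifi35, 0.000517 for Parp14 and 0.000736 for Ifih1. It was 0.0109 for Samd9l, 0.0124 for Ddx58 and 0.0357 for Ifi27l2b. In Ifi35, Parp14, Ifih1, Samd9l and Ddx58 the WSB/EiJ value was below 0 with all arrays and the NZW/LacJ value was the highest. Without both WSB/EiJ arrays the adjusted p of Ifi27l2b was 0.25, and those of the other 5 ran from 5.74e-06 to 0.0174.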

How the results depend on the processing

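Without both WSB/EiJ arrays, 8 of 30 genes rose in MA/MyJ, 7 in SM/J and 11 in WSB/EiJ, 14 exceeded the other 3 strains in NZW/LacJ, 15 exceeded MA/MyJ and SM/J, the interaction passed for 18 and vehicle levels differed for 21. The mean score of treated WSB/EiJ was then 0.467. With the compared groups fitted alone, 10 genes rose in MA/MyJ and 6 in SM/J, 0 rose and 0 fell in WSB/EiJ, and 17 set NZW/LacJ above MA/MyJ and SM/J. That last count was 1 with no filter and 1 with the mean of all probe sets, and the interaction passed for 10 with arrays centred on their medians.

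The correlation of same-numbered vehicle and treated animals of a strain ran from -0.52 to 0.41, both in WSB/EiJ. In the other strains it ran from -0.22 to 0.23. Differently numbered animals were not compared, so these values cannot decide whether the numbers pair the animals. With the replicate number as a block, 2 genes rose in MA/MyJ and 1 set NZW/LacJ above MA/MyJ and SM/J, and no other count moved by over 1.5 times.

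On leaving out 1 array at a time, the genes that rose ranged from 1 to 6 in MA/MyJ, 15 to 24 in NZW/LacJ, 1 to 5 in SM/J, 0 to 8 in WSB/EiJ and 12 to 24 on average, and those that fell in WSB/EiJ from 0 to 5. NZW/LacJ exceeded the other 3 strains in 4 to 13 and MA/MyJ and SM/J in 1 to 8, the interaction passed for 4 to 10 and vehicle levels for 6 to 20. The lowest NZW/LacJ count, 15, was without treated animal 1. The score of treated WSB/EiJ ranged from -0.103 to 0.403, below 0 without vehicle animal 1 or 2, and that of the other strains stayed within 0.239 to 0.981. The intensity trend with a robust prior kept all 150 results on their side of the threshold. Signal limits Oasl2, Mx1, Ddx60 and Ifit2, and WSB/EiJ rests on few arrays. The cause of these shifts was not tested.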
